A study of Mus musculus with 6 samples.

Results

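The genes described here make ribosomes. They are 36 nucleolar genes taken from a list of names that was chosen with earlier results of these data known. Each gene was read from its brightest probe set that carries a single gene symbol. All 36 had a log2 value over 4 in all 6 arrays, and they are 36 of the 8554 genes tested. They were placed in groups by the step they serve. There were 3 subunits of RNA polymerase I, 9 proteins of small nucleolar ribonucleoproteins (snoRNPs), 10 factors of the small ribosomal subunit, 10 factors of the large subunit and 4 nucleolar proteins with several roles.

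Whole liver was harvested 18 hours after partial hepatectomy, an operation that takes out most liver lobes, and its total RNA was hybridised to Affymetrix whole-genome mouse arrays. All mice were C57BL/6, carried floxed Socs3 alleles (Socs3 fl/fl) and had the surgery. Cre plus mice (arrays A, B and C, n = 3) also carried a Cre transgene under the albumin promoter, which is active in hepatocytes, so that Socs3, an inhibitor of JAK-STAT signalling, is excised there. Cre minus littermates (arrays A, B and C, n = 3) had no Cre. No array shows livers before surgery and no control carries Cre, so earlier differences, effects of Cre itself and effects after surgery cannot be told apart. The labels do not say whether each array is a separate mouse, so the p-values measure the spread between these arrays, which may be partly technical. Cre plus B was the Cre plus array nearest to Cre minus, correlating with the Cre minus arrays at 0.991 to 0.993 over the genes tested. Cre plus A and C correlated with them at 0.982 to 0.988. Within Cre plus, A correlated at 0.9893 with B and 0.9896 with C, and B with C at 0.987. The Cre minus arrays correlated with each other at 0.995.

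Ribosome production starts in the nucleolus, where RNA polymerase I transcribes a long precursor of ribosomal RNA. snoRNPs then guide its chemical modification and cleavage, box C/D particles directing ribose methylation and box H/ACA particles directing pseudouridylation. Separate sets of assembly factors build the small and the large subunit. In the liver remnant, hepatocytes enlarge and divide after hepatectomy, which calls for new ribosomes, and the transcription factor MYC is a known activator of many of these genes. MYC and its partner MAX bind the E-box CACGTG.

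RefSeq promoter windows (GRCm38.p6, 250 bases before to 50 after the gene start) were at hand for 31 of the 36 genes, and not for Fbl, Rrp12, Bop1, Gnl2 and Npm1. The palindrome CACGTG, which reads the same on both strands, was found in 6 of the 31 (19.4%), against 8.91% of 17492 protein-coding genes with a window. In 5 of the 6 it lay after the start, while 14.2% of all windows with the motif held it there. Utp20, Tsr1 and Pes1, which are among the genes with the smallest p-values below, are among the 6. Ddx18, Nolc1, Heatr1, Nop58 and Polr1a, also among those genes, had a window without CACGTG, and Gnl2 had no window. Wdr43, Nop2 and Mybbp1a held the motif and had log2 fold changes of -0.02, 0.11 and 0.25 with overlapping groups. A link between the motif and the values was not tested. Each sequence is given 5′ to 3′ on the strand of its gene over 30 bases, with the E-box in capitals.
Utp20: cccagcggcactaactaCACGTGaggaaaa
Tsr1: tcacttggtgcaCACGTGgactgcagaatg
Wdr43: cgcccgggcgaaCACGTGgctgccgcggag
Pes1: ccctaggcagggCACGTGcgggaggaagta
Nop2: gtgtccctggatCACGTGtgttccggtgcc
Mybbp1a: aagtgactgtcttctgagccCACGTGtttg

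The E-box of Utp20 began at base 38 after the start (window chr10:88826765-88826794, minus strand) and that of Tsr1 at base 25 (chr11:74898092-74898121, plus strand). In Pes1 it began at base 3 (chr11:3963965-3963994, plus strand), in Wdr43 at base 18 (chr17:71616220-71616249, plus strand) and in Mybbp1a at base 41 (chr11:72441347-72441376, plus strand). In Nop2 it lay before the start, beginning at base -60 (chr6:125131811-125131840, plus strand). A variant, CACGCG on either strand, was found in 11 of the 31 genes (35.5%) and in 13.7% of all genes with a window. Mybbp1a and Pes1 held both motifs, which cannot occupy the same 6 bases. These matches are letters in a window and are not sites shown to be bound.

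The ribosome biogenesis genes had mostly higher values in Cre plus livers, by small amounts. Their list was chosen with earlier results known, so the shares below describe these genes and are not a test of the list. Of the 36, 28 were higher and 8 lower in value, with a median log2 fold change (Cre plus minus Cre minus) of 0.18, whereas 46.5% of all genes tested were higher and their median was -0.01. None of the 36 passed limma's adjusted p under 0.05 over all genes, a threshold that 2 of all 8554 genes (0.0234%) passed upwards and 0 downwards. At an unadjusted p under 0.05, limma listed 9 of the 36 as higher (25%) and 0 as lower, against a background of 6.62% higher and 8.21% lower among all genes. Those 9 were Ddx18, Gnl2, Utp20, Tsr1, Nolc1, Heatr1, Nop58, Polr1a and Pes1. In 9 genes, these without Polr1a but with Nop16, every Cre plus value lay above every Cre minus value, which was so for 9.21% of all genes, and in 0 of the 36 every Cre plus value lay below (11.9% of all genes). The count of 9 at an unadjusted p under 0.05 became 4 when Cre minus C was left out (background 4.11%), 5 when Cre plus C was (6.59%) and 14 when Cre plus B was (9.11%). Leaving out Cre plus B also gave 19 genes without overlap (16.9% of all genes) and a median of 0.28, leaving out Cre minus B gave 14 without overlap (13.7%), and leaving out Cre plus C gave a median of 0.09. Ddx18, Gnl2 and Utp20 were listed as higher in all 15 alternative settings and Tsr1 in the 14 that tested it.

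**Figure D1:**
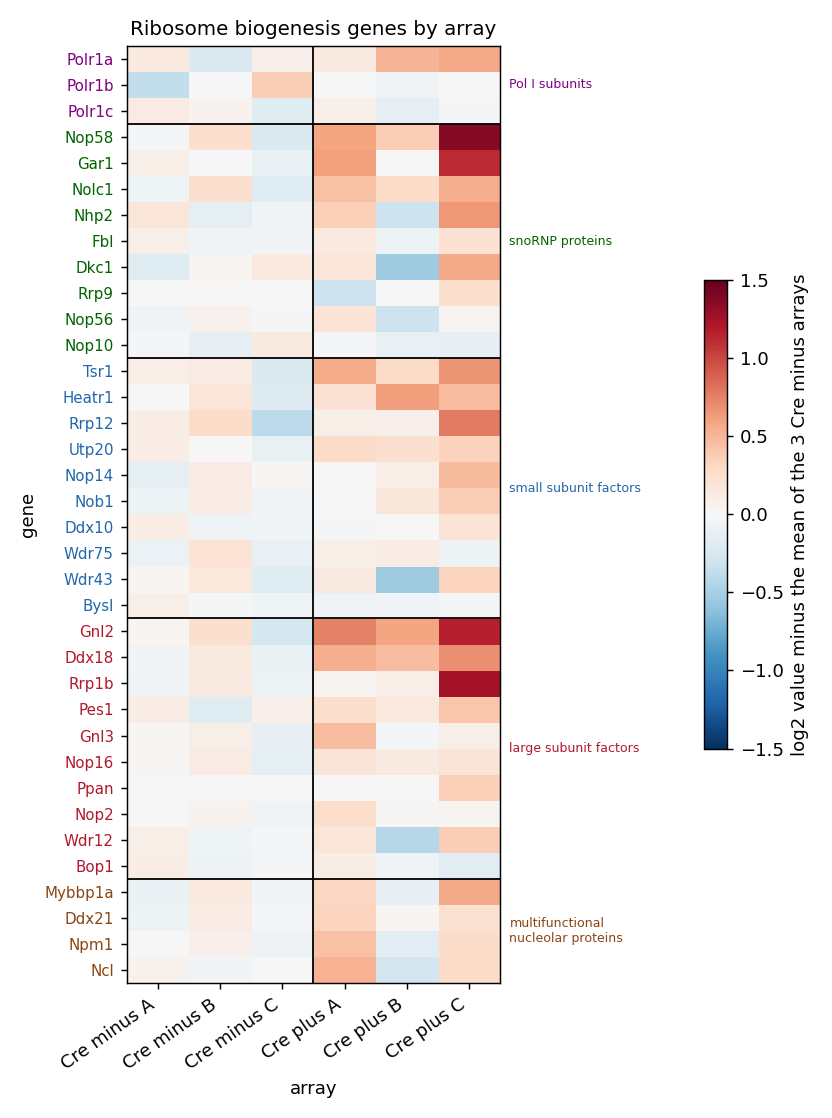
Log2 value of each gene (rows, grouped and coloured by step) in each array (columns), as the difference from the mean of the 3 Cre minus arrays, red above and blue below it. Most rows are red in Cre plus A and Cre plus C, while Cre plus B is mixed, with Dkc1 and Wdr43 among the bluest cells.

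The 3 Cre plus arrays differed in how far these genes were shifted. Averaged over the 36 genes, Cre plus A lay 0.23, Cre plus B 0.03 and Cre plus C 0.40 above the Cre minus mean on the log2 scale, and the Cre minus arrays lay between -0.06 and 0.05. Averaged over all genes tested, the 6 arrays lay between -0.03 and 0.03. Cre plus C held the highest of the 6 values in 22 of the 36 genes (61.1%), against 16.2% of all genes. Cre plus B held it in 1 gene, Heatr1, against 15.4% of all genes. Cre plus A and Cre plus C were each above the Cre minus mean in 31 of the 36 genes (86.1%), against 48.8% and 42.3% of all genes. Cre plus B was above it in 19 (52.8%), near the 47.2% of all genes. In 26 of the 36 genes (72.2%) the SD was larger in Cre plus than in Cre minus, against 63.1% of all genes.

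The values of Myc and Socs3 were set beside these shifts. Myc, just above the filter, was at 4.66, 4.68 and 4.66 in Cre minus and at 4.93, 4.59 and 4.88 in Cre plus, a log2 fold change of 0.13 ± 0.10 (limma's SE) with limma's adjusted p = 0.576. Cre plus A and C were thus above every Cre minus array for Myc and Cre plus B was below. Socs3 on its brightest probe set was at 9.09, 9.30 and 9.24 in Cre minus and at 7.44, 6.69 and 7.47 in Cre plus, so it was lowest in Cre plus B, with a log2 fold change of -2.01 ± 0.22 and limma's adjusted p = 0.0732. The part of Myc or of Socs3 level in the shifts was not tested.

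In tissue RNA, fewer cells of a type and less RNA per cell cannot be told apart. All 9 hepatocyte markers with a probe set were over the filter, and their mean log2 value was 13.96 to 13.98 in Cre minus and 13.88, 13.87 and 14.04 in Cre plus. Of these 9, 6 were lower in value, with summed linear signal of 196104 to 203314 in Cre minus and 184113 to 200872 in Cre plus. Of 12 Kupffer cell and macrophage markers over the filter 11 were lower in value, with summed linear signal of 4715 to 5171 in Cre minus and 3602 to 4407 in Cre plus. Of 9 sinusoidal endothelial markers 8 were lower (2462 to 2857 against 1949 to 2444), and of 9 stellate cell markers 5 were lower (2167 to 2304 against 2027 to 2770). At an unadjusted p under 0.05, limma listed 7 Kupffer cell, 3 endothelial, 1 hepatocyte and 0 stellate cell markers as lower (8.21% of all genes). It listed 1 Kupffer cell marker as higher (6.62% of all genes). The neutrophil markers S100a8 and S100a9 had a mean log2 value of 8.13 to 8.19 in Cre minus and 9.66, 7.92 and 8.20 in Cre plus. Sox9 was the only one of 5 cholangiocyte markers over the filter, Alas2 the only one of 3 erythroid markers, and none of 9 lymphocyte markers was. The part of these cells in the ribosome biogenesis values was not tested.

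**Figure D2:**
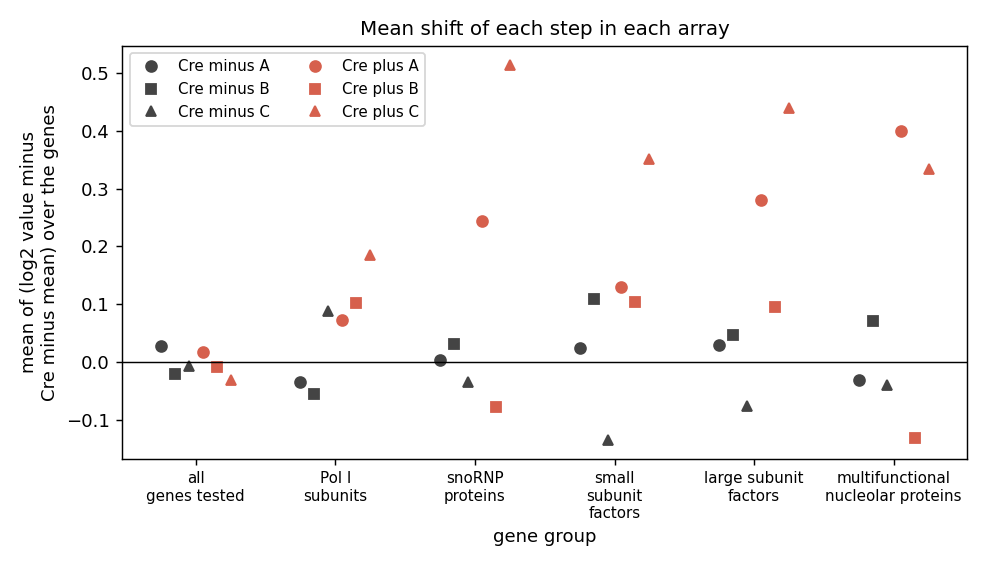
Mean over the genes of each step of the log2 value minus the Cre minus mean (vertical axis), for all genes tested and for the 5 steps (horizontal axis); grey symbols are Cre minus arrays and red symbols Cre plus arrays, with circles for A, squares for B and triangles for C. In the snoRNP and multifunctional groups Cre plus B lies below every Cre minus array while Cre plus A and C lie above.

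RNA polymerase I subunits gave no common direction. Polr1a, the largest subunit of the enzyme, had log2 values of 5.83, 5.47 and 5.76 in the Cre minus arrays and of 5.82, 6.19 and 6.25 in the Cre plus arrays, in the order A, B, C used throughout. Cre plus B and C were above all Cre minus arrays and Cre plus A was level with the upper Cre minus arrays, so the groups overlapped. The log2 fold change was 0.40 ± 0.15 (limma's adjusted p = 0.311, exact permutation p = 0.2). Polr1b, which with Polr1a forms the catalytic centre, spread from 5.27 to 6.01 in Cre minus and from 5.58 to 5.64 in Cre plus, with a log2 fold change of -0.01 ± 0.18. Polr1c, a subunit shared with RNA polymerase III, was at 8.27, 8.20 and 7.96 in Cre minus and 8.22, 7.99 and 8.12 in Cre plus. Its log2 fold change was -0.03 ± 0.11, while its other kept probe set gave 0.26, so the sign depends on the probe set.

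Among the box C/D snoRNP proteins, Nop58 had the highest fold change. Nop58, a scaffold protein of the particle, was at 7.17, 7.45 and 6.98 in Cre minus and 7.79, 7.56 and 8.57 in Cre plus. The groups did not overlap, but Cre plus B was only just above Cre minus B and Cre plus C was far above the rest. The mean went from 7.20 ± 0.24 to 7.97 ± 0.53 (SD, n = 3), a log2 fold change of 0.78 ± 0.28 (limma's adjusted p = 0.292, exact permutation p = 0.1, the smallest that 3 against 3 can give), and 0.48 without Cre plus C. Its partner in the same particle, Nop56, was at 7.74, 7.85 and 7.78 in Cre minus and 7.99, 7.48 and 7.83 in Cre plus. Cre plus A was the highest and Cre plus B the lowest of the 6, and the log2 fold change was -0.02 ± 0.14, or 0.05 on the other kept probe set. Fbl, the methyltransferase of the particle, had 0.09 ± 0.09, and Rrp9, a protein of the U3 particle that takes part in precursor cleavage, had -0.02 ± 0.14.

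The box H/ACA proteins split by array. Gar1, a core protein of these particles, was at 7.37, 7.29 and 7.19 in Cre minus and 7.91, 7.28 and 8.40 in Cre plus, a log2 fold change of 0.58 ± 0.27 (limma's adjusted p = 0.396, exact permutation p = 0.3), or 0.31 without Cre plus C. Dkc1, the pseudouridine synthase, was at 5.71, 5.93 and 6.04 against 6.07, 5.35 and 6.46, and Nhp2, which binds the guide RNA, at 8.97, 8.64 and 8.75 against 9.14, 8.48 and 9.44. All 3 had the order Cre plus C, Cre plus A, Cre plus B, with Cre plus A and C above every Cre minus array. The log2 fold change of Dkc1 was 0.07 ± 0.28 on the probe set read and 0.49 and 0.56 on its other kept probe sets. Nop10, the smallest core protein, was at 10.53, 10.42 and 10.68 against 10.51, 10.43 and 10.41 and did not share that order (log2 fold change -0.09 ± 0.08). Nolc1, a chaperone of snoRNPs, was at 6.88, 7.18 and 6.76 in Cre minus and 7.39, 7.22 and 7.49 in Cre plus, with no overlap and a log2 fold change of 0.42 ± 0.13 (limma's adjusted p = 0.250, exact permutation p = 0.1). The other kept probe sets of Nolc1 gave -0.10 and 0.18, so its size and sign depend on the probe set. The one at 0.18 had no overlap either (limma's unadjusted p = 0.0476).

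Small subunit factors were higher in 8 of 10 genes, with a median log2 fold change of 0.18, which was 0.082 without Cre plus C and 0.28 without Cre plus A. Utp20, a large scaffold of the small subunit processome, was at 6.47, 6.35 and 6.24 in Cre minus and 6.65, 6.59 and 6.70 in Cre plus. All 3 Cre plus arrays lay close together above all Cre minus arrays, with a log2 fold change of 0.29 ± 0.08 (limma's adjusted p = 0.200, exact permutation p = 0.1). Tsr1, which acts in late maturation of the small subunit, was at 7.997, 8.02 and 7.68 against 8.46, 8.19 and 8.57. It did not overlap either, at 0.51 ± 0.14 (limma's adjusted p = 0.212, exact permutation p = 0.1). The other kept probe set of Tsr1 gave 0.29 with overlapping groups (limma's unadjusted p = 0.135). Heatr1, a processome protein also needed for transcription by RNA polymerase I, was at 7.94, 8.12 and 7.74 against 8.15, 8.57 and 8.40. It was the gene with its highest value in Cre plus B, and its log2 fold change was 0.44 ± 0.14 (limma's adjusted p = 0.259, exact permutation p = 0.1).

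The other small subunit factors had overlapping groups. Wdr43, another processome protein, was at 6.71, 6.85 and 6.50 in Cre minus and 6.82, 6.15 and 7.02 in Cre plus, with the lowest and the highest value both in Cre plus. Its log2 fold change was -0.02 ± 0.24, and 0.26 on the other kept probe set. Rrp12, which takes part in export of the small subunit precursor, was at 6.01 and 6.00 in Cre plus A and B, within the Cre minus range of 5.53 to 6.20, and at 6.70 in Cre plus C. Nop14 (0.19 ± 0.14) and Nob1, the endonuclease that trims the small subunit RNA (0.18 ± 0.11), also had their highest value in Cre plus C. The helicase Ddx10 (0.05 ± 0.09), the processome protein Wdr75 (0.04 ± 0.11) and Bysl, a factor of late maturation (-0.04 ± 0.06), were near 0.

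**Figure D3:**
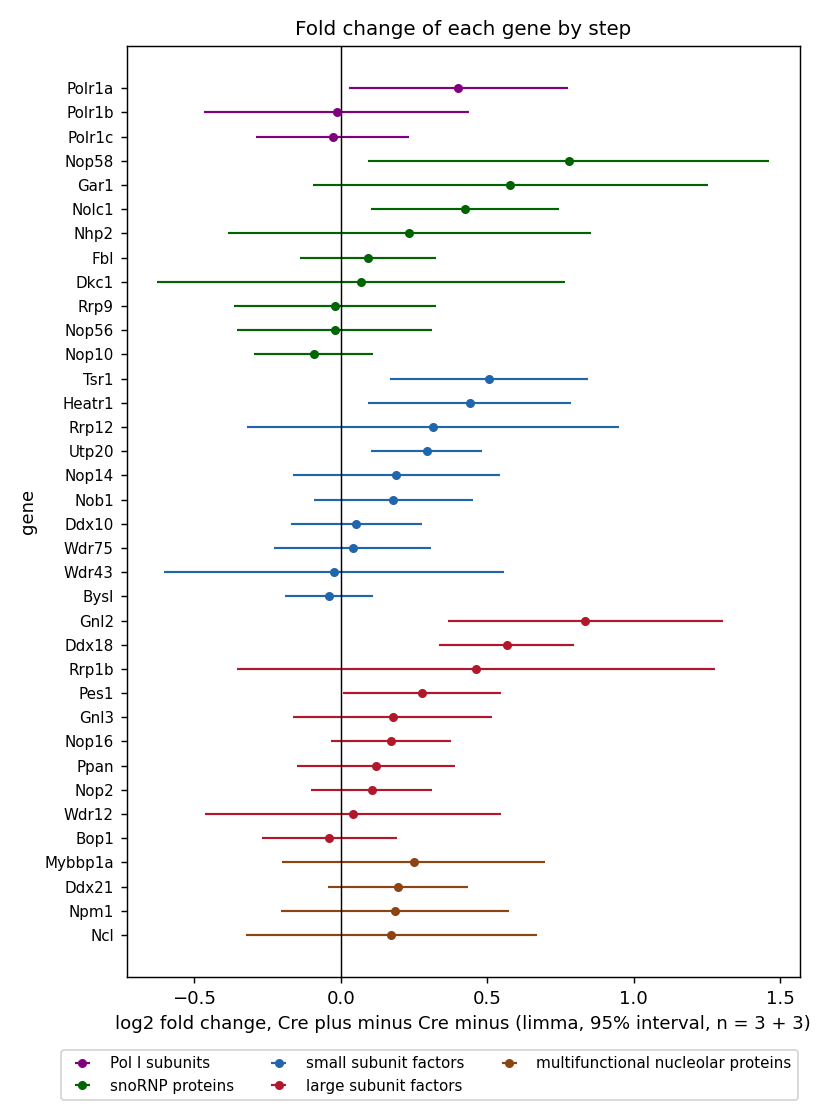
Log2 fold change of each of the 36 genes (points, horizontal axis) with limma's 95% interval (bars), coloured by step, n = 3 arrays per group. The intervals of Ddx18 (0.33 to 0.80) and Gnl2 (0.36 to 1.31) lie farthest above 0, and no interval lies wholly below 0.

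Large subunit factors held the genes with the smallest p-values. Their median log2 fold change was 0.17, and 0.27 without Cre plus B. Ddx18, a nucleolar RNA helicase, was at 6.11, 6.29 and 6.05 in Cre minus and 6.70, 6.61 and 6.84 in Cre plus. The groups were well apart, with means of 6.15 ± 0.13 and 6.72 ± 0.11 (SD, n = 3), a 1.48-fold difference and a log2 fold change of 0.57 ± 0.09 (limma's unadjusted p = 0.00102, adjusted p = 0.106, rank 82 of 8554 genes, exact permutation p = 0.1). The slightly dimmer kept probe set of Ddx18 gave 0.32 with overlapping groups, Cre plus B being at 6.21 and Cre minus A at 6.24 (limma's unadjusted p = 0.0671). Gnl2, a nucleolar GTPase of large subunit assembly, was at 8.997, 9.20 and 8.70 in Cre minus and 9.71, 9.56 and 10.13 in Cre plus. It had the highest fold change of the 36 genes, 1.78-fold or 0.84 ± 0.19 on the log2 scale (limma's adjusted p = 0.178, exact permutation p = 0.1), and 0.78 on its other kept probe set. Its paralog Gnl3 (nucleostemin) was at 9.13, 9.18 and 8.97 against 9.55, 9.08 and 9.18, so that Cre plus A alone stood clear of the Cre minus range (0.18 ± 0.14).

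Pes1, Bop1 and Wdr12 form the PeBoW complex, which processes the precursor of the large subunit RNA, and their values did not move alike. Pes1 was at 6.32, 6.03 and 6.29 in Cre minus and 6.48, 6.36 and 6.63 in Cre plus, without overlap and with a log2 fold change of 0.28 ± 0.11 (limma's adjusted p = 0.327, exact permutation p = 0.1). Bop1 was at 7.41, 7.22 and 7.27 against 7.41, 7.24 and 7.13 (-0.04 ± 0.09). Wdr12 was at 7.11, 6.96 and 7.00 against 7.20, 6.60 and 7.39 (0.04 ± 0.21). Bop1 thus stayed near the Cre minus range in every Cre plus array, and Wdr12 was above it in Cre plus A and C and below it in Cre plus B. Differences between these genes were not tested.

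Of the other large subunit factors, Nop16 was at 8.57, 8.68 and 8.40 in Cre minus and 8.74, 8.68 and 8.74 in Cre plus, and its groups were separated by less than 0.01 (0.17 ± 0.08, limma's adjusted p = 0.406). Rrp1b, a nucleolar regulator of protein phosphatase 1, was at 5.47, 5.67 and 5.45 against 5.58, 5.63 and 6.78, so its log2 fold change of 0.46 ± 0.33 came from Cre plus C alone and was 0.07 without that array. Ppan was at 6.52 in all 3 Cre minus arrays and at 6.52, 6.53 and 6.88 in Cre plus, again high in Cre plus C alone (0.12 ± 0.11). Nop2, an RNA methyltransferase, had 0.11 ± 0.08, with Cre plus A highest. The Cre minus values of Ppan and of Rrp9 lay within 0.01 of each other, which was so for 2.72% of all genes.

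The 4 multifunctional nucleolar proteins were all higher on average, with a median log2 fold change of 0.19, and in all 4 the groups overlapped. That median was 0.093 when Cre plus A was left out and 0.38 when Cre plus B was. Ddx21, a helicase that links transcription by RNA polymerase I with processing, was at 7.50, 7.69 and 7.55 in Cre minus and 7.91, 7.61 and 7.80 in Cre plus (0.20 ± 0.10, limma's adjusted p = 0.414, exact permutation p = 0.2). Mybbp1a, a nucleolar repressor named for its binding to MYB, was at 8.56, 8.81 and 8.63 against 8.97, 8.54 and 9.23 (0.25 ± 0.18, limma's adjusted p = 0.569, exact permutation p = 0.4). Ncl (nucleolin), an abundant RNA-binding protein of the nucleolus, was at 10.52, 10.43 and 10.46 against 10.99, 10.19 and 10.75 (0.17 ± 0.20, or 0.00017 without Cre plus A), and its kept probe sets ranged from -0.01 to 0.24. Npm1 (nucleophosmin), a nucleolar chaperone, was at 10.63, 10.71 and 10.56 against 11.07, 10.48 and 10.90 (0.19 ± 0.16). In Ncl, Npm1 and Mybbp1a, Cre plus A and C were above and Cre plus B below every Cre minus array.

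**Figure D4:**
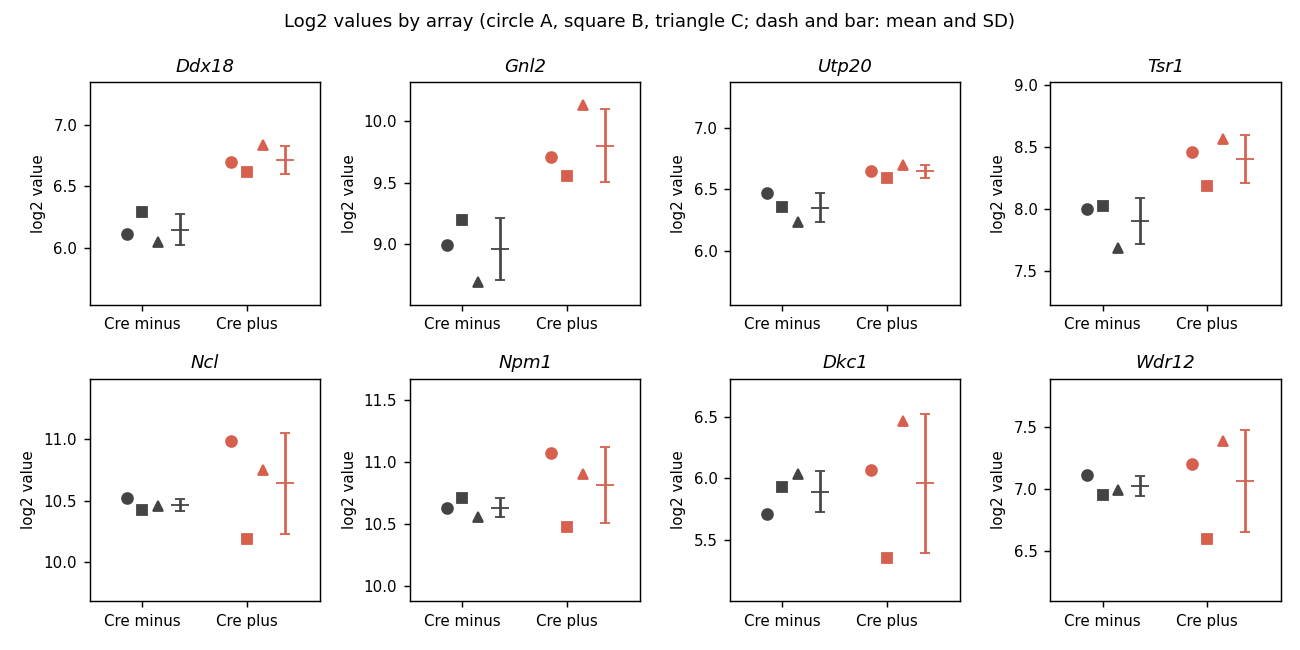
Log2 values by array of 4 genes whose groups do not overlap (Ddx18, Gnl2, Utp20 and Tsr1, upper row) and of 4 genes with Cre plus B below all Cre minus arrays (Ncl, Npm1, Dkc1 and Wdr12, lower row); circles are A, squares B and triangles C, dashes and bars are mean and SD (n = 3), and each panel spans 1.8 on the log2 axis. In the lower row Cre plus A and C also lie above all Cre minus arrays, so the wider SD of Cre plus follows from that order.

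That order, chosen after the values were seen, was counted over all genes. Cre plus A and C above every Cre minus array with Cre plus B below every one was found in 7 of the 36 genes (Ncl, Npm1, Mybbp1a, Dkc1, Nhp2, Fbl and Wdr12), or 19.4%, against 2.72% of all genes. The 7 comprised 3 snoRNP proteins, 3 multifunctional proteins, 1 large subunit factor and 0 small subunit factors or RNA polymerase I subunits. Of the 8 other kept probe sets of these genes, 4 had the same order, and Cre plus B was the lowest Cre plus array in all 8. These probe sets read the same picked genes on the same arrays, so they are not independent support. By gene, Cre plus B was the lowest Cre plus array in 24 of the 36 genes (66.7%), against 29.4% of all genes. By step, Cre plus B lay at -0.08 for snoRNP proteins and -0.13 for multifunctional proteins, and at 0.10 for small subunit factors, 0.10 for large subunit factors and 0.10 for RNA polymerase I subunits, as mean differences from the Cre minus mean on the log2 scale. Cre plus C lay at 0.51, 0.33, 0.35, 0.44 and 0.19 in the same order of groups, and Cre plus A at 0.24, 0.40, 0.13, 0.28 and 0.07.

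**Figure D5:**
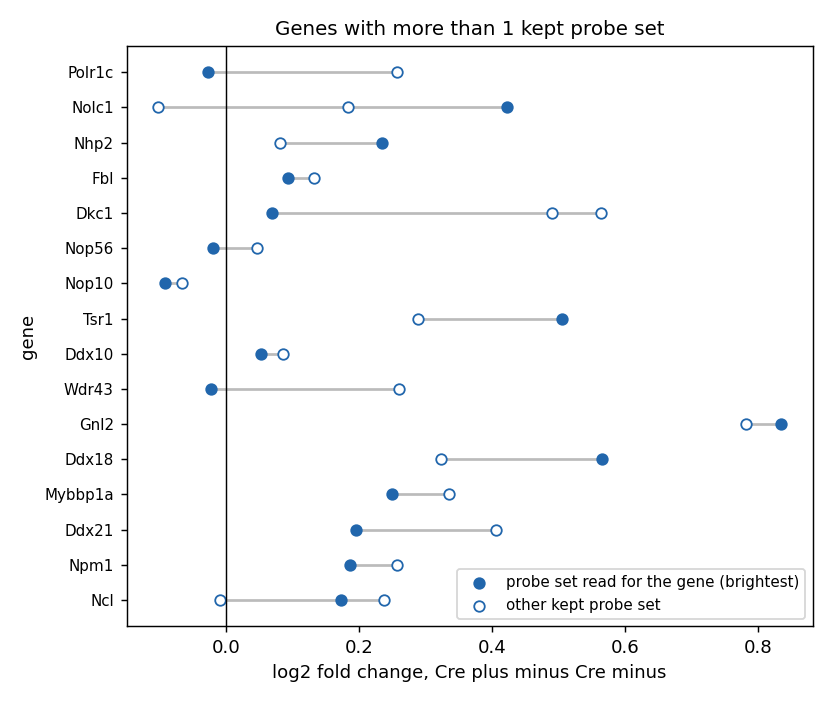
Log2 fold change of every kept probe set (points, horizontal axis) of the 16 genes with more than 1, with filled points for the probe set read and open points for the others. The probe sets lie on both sides of 0 in Polr1c, Nolc1, Nop56, Wdr43 and Ncl, and those of Dkc1 and Nolc1 are the farthest apart.

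The genes had 74 probe sets, of which 55 passed the filter. In 11 of the 16 genes with more than 1 kept probe set the sign was the same on all of them. For Gnl2, Ddx18 and Tsr1 every kept probe set was higher on average in Cre plus, at 0.78 and 0.84, 0.32 and 0.57, and 0.29 and 0.51. On the dimmer probe sets of Ddx18 and Tsr1 the groups overlapped. Utp20, Heatr1, Nop58, Polr1a and Pes1 each had 1 kept probe set, so their values have no second reading.

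The wider pathway was read from lists of other ribosome biogenesis factors. Of 103 such genes tested 76 were higher and 27 lower in value, with a median log2 fold change of 0.10. None passed limma's adjusted p under 0.05, and 7 were higher and 3 lower with an unadjusted p under 0.05, or 6.80% higher against the background of 6.62%. Of 41 other small subunit factors 33 were higher, with Ngdn (0.27 ± 0.09) and Krr1 (0.17 ± 0.07) having the smallest p. Of 41 other large subunit factors 32 were higher, but the smallest p-values belonged to lower genes, the helicase Ddx51 (-0.46 ± 0.15) and the ATPase Nvl (-0.20 ± 0.06). Of 10 other snoRNP and assembly proteins 5 were higher, among them Rpap3, a cochaperone of snoRNP assembly, at 8.73, 8.77 and 8.40 in Cre minus and 9.51, 9.51 and 9.18 in Cre plus (0.77 ± 0.14, limma's adjusted p = 0.125). Znhit6, which also acts in box C/D assembly, was lower, at 6.58, 6.75 and 6.67 against 6.16, 6.28 and 6.51 (-0.35 ± 0.10, limma's adjusted p = 0.240). Of 11 other genes of RNA polymerase I transcription 6 were higher, with Polr1d at 0.24 ± 0.11 and Polr1e at 0.28 ± 0.14.

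Ribosomal proteins themselves, the structural parts of the ribosome, had small positive values. Of 41 tested 34 were higher and 7 lower, with a median log2 fold change of 0.03 and 0 past an unadjusted p under 0.05 in limma in either direction. Rps20 had 0.13 ± 0.07, Rps28 0.09 ± 0.05, Rpl37 0.12 ± 0.06 and Rpl6 0.09 ± 0.06. Of 7 genes of the MYC network 5 were higher, the MYC antagonists Mxi1 (-0.16 ± 0.09) and Mxd1 (0.16 ± 0.11) having the smallest p, and 0 passed an unadjusted p under 0.05 in limma.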

How the data were processed

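Total RNA from liver (2 ug per array) was measured on 6 arrays. The authors deposited log2 values, which the submitters' processing notes say came from GCRMA, without a version. This method removes a background modelled on probe sequence and gives the probe intensities of all arrays 1 common distribution, and it compresses low values. The deposited probe set values did not share exactly 1 distribution. Array medians lay between 2.98 and 3.02. The table holds 45101 probe sets, of which 64 control probe sets were left out. The platform annotation gave 1 symbol for 34945, several for 932 and none for 9160 of the rest, and 0 symbols changed through the Entrez ID in the RefSeq gene table of GRCm38.p6. Probe sets over a log2 value of 4 in at least 3 arrays were kept. A gene was read from its brightest kept single-symbol probe set, which gave 8554 genes.

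The groups were compared in limma 3.58.1 (R 4.3.3) by lmFit and eBayes without a block, two-sided, with Benjamini-Hochberg adjustment over the 8554 genes. Errors after ± are limma's standard errors unless given as SD. Exact permutation tests were two-sided over the 6 arrays. The fit was tried on simulated data in which genes varied independently and with the same SD in both groups. It was not tried on shifts that many genes of an array share. Precision is limited by the number of arrays.

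The genes and lists were chosen with earlier results of these data known. Values in every array are given for the 3 genes with the smallest p in each step (2 for RNA polymerase I and the multifunctional proteins) and for genes whose kept probe sets disagree in sign. Outside the 36 genes the text names Socs3, Myc and the 2 genes with the smallest p in each pathway list. It also names marker genes of other cell types where few or single markers passed the filter. Other genes with values in every array were chosen after these were seen. Alternatives were another centring or quantile normalization, no filter or one at 6, a variance prior with trend, other probe set rules, array weights, a replicate block and each array left out.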

Additional observations from a re-analysis of the deposited data

How the results depend on the processing

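Across the 15 alternatives none of the 36 genes passed an adjusted p under 0.05, and Ddx18 reached the lowest value, 0.0597 under the stricter filter, log2 over 6 (range 0.0597 to 0.364). That filter left 32 of the 36 genes to test. Without _x_at and _s_at probe sets 34 were tested, since every kept probe set of Gar1 and of Tsr1 was an _s_at probe set. Over all genes the count past the threshold was 2 as reported, 0 with no filter, 56 under the stricter filter, 0 with the replicate block and 0 to 13 with an array left out. With the replicate block 6 of the 36 genes (16.7%) reached an unadjusted p under 0.05 upwards, against 5.66% of all genes. Same-lettered arrays showed no shared deviation (correlations of -0.15, -0.10 and 0.019), and no array correlated best with its own letter. The labels do not say whether the letters pair animals, so the letters were treated as names only. With each array left out in turn, the genes higher at an unadjusted p under 0.05 numbered 4 to 14, those with no overlap 9 to 19, and those higher in value 26 to 32. Without Cre plus B, 19 had no overlap (16.9% of all genes), and without Cre minus B 14 (13.7%). The count was 9 without Cre minus C (11.6% of all genes) and 9 without Cre plus C (15.3%), against 9.21% of all genes as reported. The median of all 36 genes ranged from 0.09 to 0.28 and that of the snoRNP proteins from 0.024 to 0.373, the highest without Cre plus B. The median of the RNA polymerase I subunits, which rests on 3 genes, was -0.01 as reported, 0.12 with the mean of all kept probe sets, 0.26 without _x_at and _s_at probe sets, and -0.024 to 0.173 with an array left out.

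Of the single genes' log2 fold changes under the alternatives 507 kept their sign and 27, in 11 genes near 0, did not. With the mean of all kept probe sets Polr1c became 0.12, Nop56 0.014 and Wdr43 0.12. Without _x_at and _s_at probe sets Polr1c became 0.26 and Nop56 0.047. With array weights Polr1c became 0.012, Nop56 0.0071 and Wdr43 0.0015. With an array left out the ranges were -0.20 to 0.17 for Polr1b, -0.12 to 0.036 for Polr1c, -0.13 to 0.12 for Nop56, -0.15 to 0.125 for Rrp9, -0.18 to 0.37 for Dkc1, -0.20 to 0.23 for Wdr43, -0.017 to 0.14 for Wdr75, -0.023 to 0.11 for Ddx10, -0.070 to 0.0061 for Bysl, -0.11 to 0.025 for Bop1 and -0.12 to 0.27 for Wdr12.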
